A study of Mus musculus with 27 samples.

Results

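The lysosomal cathepsins of the mouse left ventricle were described here with 2 of their partners, legumain and the lysosomal membrane protein Lamp1. The 10 genes were taken by symbol from a list (Ctsa, Ctsb, Ctsc, Ctsd, Ctsh, Ctsk, Ctsl, Ctsz, Lgmn and Lamp1), and all 10 were among the 8987 genes of the messenger RNA table. Adult mice of the FVB strain, either wild type (WT) or carrying the constitutively active PI3Kalpha transgene called caPI3Kalpha, were either sham-operated or given TAC (transverse aortic constriction), a banding that raises the pressure against which the left ventricle pumps. The left ventricle was collected 7 days later. Messenger RNA was sequenced from 4 sham-operated and 3 TAC animals of the WT genotype and from 2 sham-operated and 2 TAC animals of the caPI3Kalpha genotype, each known by a number in its title. The genotype label reads PI3Kalpha mutant, and the promoter of the transgene is not given in the sources used here. Levels are in RPKM, read numbers scaled to transcript length and to the size of the library.

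Lysosomes are acidic vesicles that break down proteins, lipids and sugars delivered by endocytosis, phagocytosis and autophagy. Cathepsins are their main proteases: each is made as an inactive precursor, carried to the lysosome on mannose 6-phosphate receptors, and activated there by cleavage at low pH. Cardiac myocytes use them for autophagic turnover, and macrophages and fibroblasts also secrete some of them, which then cut collagen and other matrix proteins.

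The transgene and the libraries were checked first. Pik3ca, the gene for the catalytic subunit, had 7.13 ± 1.36 RPKM in WT sham (SD, n = 4) and 7.53 ± 1.72 in WT TAC (n = 3), against 155 ± 56.3 in caPI3Kalpha sham and 106 ± 6.51 in caPI3Kalpha TAC (n = 2 each). The 8 ventricular myocyte markers summed to between 20110 and 20960 RPKM in sham-operated WT hearts and between 15980 and 16920 after TAC. In caPI3Kalpha hearts the sums were 17670 to 20610 RPKM (sham) and 18450 to 19140 (TAC). The 11 libraries fell into 2 sets along the first principal component of 8876 genes other than the lysosomal ones, which held 52.1% of the variance. On 1 side (the first set) lay all 4 caPI3Kalpha libraries with WT sham 6 and WT TAC 1. The other 5 WT libraries, sham 7, 13 and 15 with TAC 17 and 19, made up the second set. The labels name no such split, so genotype and set cannot be told apart outside the 2 WT libraries of the first set. For the 10 genes, results that touch genotype are therefore also given with the set as a model term and within the first set. The sets were drawn from these same libraries, so p-values with that term are no independent support. The labels of WT sham 15 disagree on its animal number, which was taken from the title. In these bulk samples, fewer cells of a type and less RNA per cell cannot be told apart.

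Ctsd dominated the family. Over the 11 libraries the aspartic protease Ctsd averaged 358 ± 41.1 RPKM (SD) and ranked 63 of the 8987 genes. It was followed by Lamp1, a heavily glycosylated protein lining the lysosomal membrane, at 161 ± 22.2, and by the cysteine proteases Ctsb at 82.7 ± 12.9 and Ctsl at 40.6 ± 6.22. The ranges of these 4 genes did not overlap, so their order was the same in all 11 libraries. Lgmn, the asparagine-specific protease that matures several cathepsins, averaged 32.1 ± 8.33 RPKM, and Ctsa, a serine carboxypeptidase that also stabilizes neuraminidase and beta-galactosidase, averaged 25.6 ± 5.77. Ctsz, a carboxypeptidase, averaged 14.0 ± 6.38 RPKM, Ctsc, which activates the serine proteases of leukocytes, 6.32 ± 2.97, Ctsk, a collagenase best known from osteoclasts, 3.97 ± 2.72, and Ctsh, an aminopeptidase, 3.72 ± 0.703. From Ctsl downward each gene's range overlapped that of the next in line. Ctsk was above Ctsh in 4 of 11 libraries and below all 4 Ctsh values in WT sham.

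**Figure D1:**
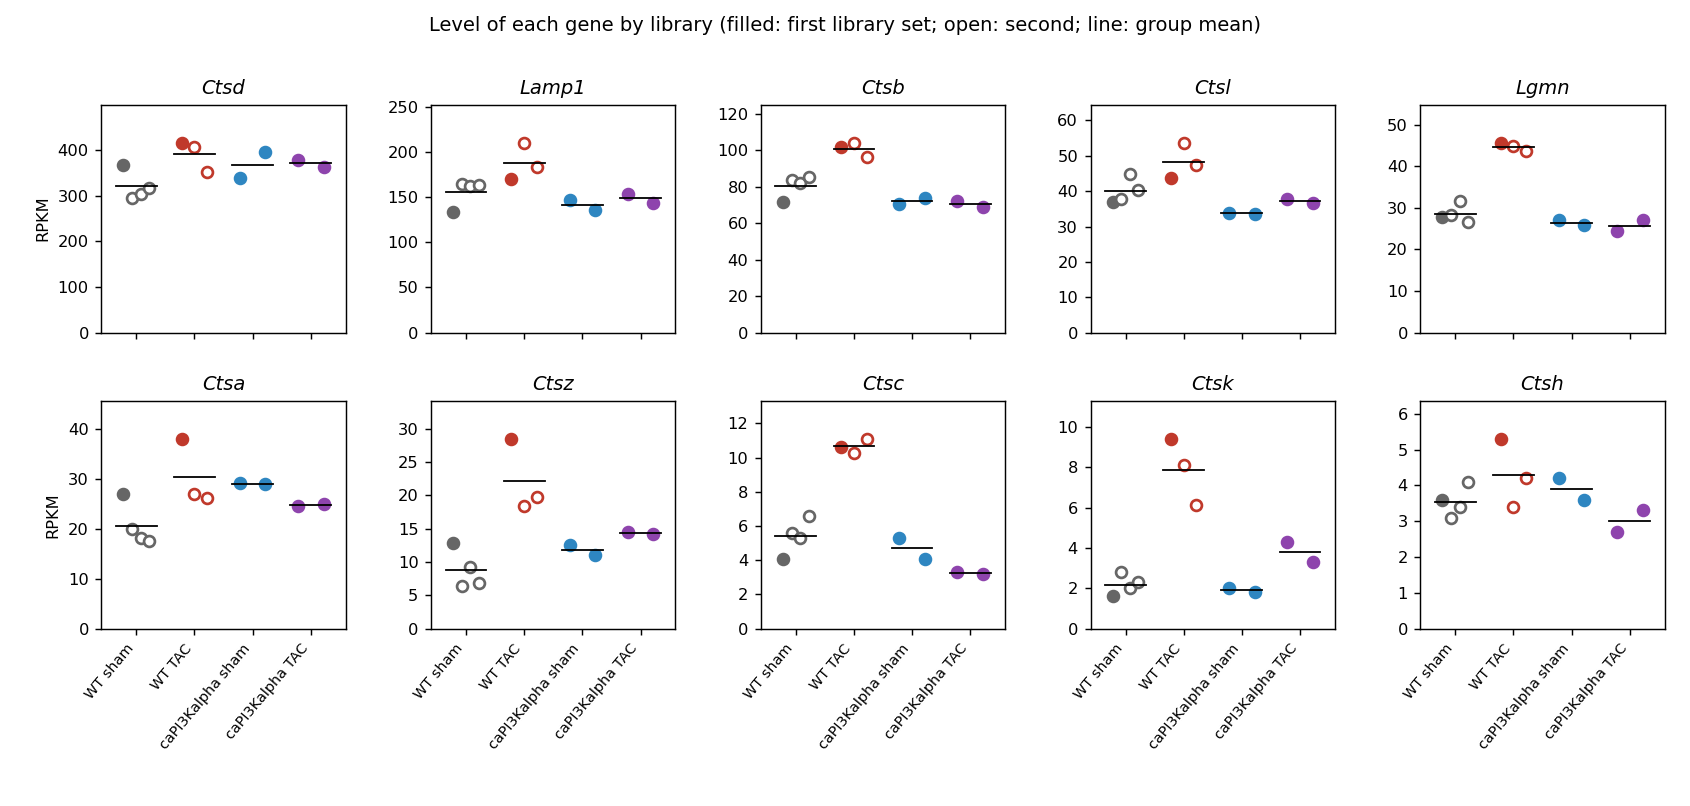
RPKM of each of the 10 genes on its own axis from 0, with 1 point for each of the 11 libraries by genotype and operation, filled for the first library set and open for the second, and a line at each group's mean. Ctsd lies between 294.8 and 416.3 in every library, while Ctsk lies between 1.6 and 2.8 in WT sham and between 6.1 and 9.4 in WT TAC.

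The stretch just upstream of 4 of the genes is shown because these genes differ in level and in their response to TAC. Lamp1 and Ctsd had the highest levels, Ctsk rose most in WT TAC, and Ctsc had the largest difference between the genotypes after TAC. The sequences are the 250 bases before the gene start in RefSeq (build GRCm38.p6), written 5′ to 3′ along the gene. Capitals mark CACGTG, the core of the E-box read by the TFEB family, whose members drive many lysosomal genes. The Lamp1 window is chr8:13158911-13159160 on the plus strand, that of Ctsd chr7:142387828-142388077 on the minus strand, that of Ctsk chr3:95498960-95499209 on the plus strand and that of Ctsc chr7:88277835-88278084 on the plus strand.
Lamp1: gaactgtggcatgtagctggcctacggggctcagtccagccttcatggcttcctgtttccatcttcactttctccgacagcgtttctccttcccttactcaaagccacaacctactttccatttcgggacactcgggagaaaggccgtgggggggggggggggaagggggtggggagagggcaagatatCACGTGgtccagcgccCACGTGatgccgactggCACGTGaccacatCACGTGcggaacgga
Ctsd: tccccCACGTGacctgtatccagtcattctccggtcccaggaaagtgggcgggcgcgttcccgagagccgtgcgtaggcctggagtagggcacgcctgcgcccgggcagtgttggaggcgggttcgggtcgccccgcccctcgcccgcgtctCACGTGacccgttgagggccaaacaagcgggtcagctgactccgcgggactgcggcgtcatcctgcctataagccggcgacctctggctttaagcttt
Ctsk: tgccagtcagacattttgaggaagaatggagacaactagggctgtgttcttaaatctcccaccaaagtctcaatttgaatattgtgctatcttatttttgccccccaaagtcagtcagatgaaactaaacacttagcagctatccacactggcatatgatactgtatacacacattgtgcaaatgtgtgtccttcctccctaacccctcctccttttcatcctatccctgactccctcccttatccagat
Ctsc: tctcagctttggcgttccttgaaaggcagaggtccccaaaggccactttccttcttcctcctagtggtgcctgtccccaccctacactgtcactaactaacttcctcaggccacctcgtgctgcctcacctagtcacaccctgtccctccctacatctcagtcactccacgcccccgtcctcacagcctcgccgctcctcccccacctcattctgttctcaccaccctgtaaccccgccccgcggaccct

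Lamp1 carried 4 copies of CACGTG, whose first bases lay 61, 45, 28 and 15 bases before the gene start. Ctsd carried 2 copies, 245 and 98 bases before it. The windows printed for Ctsk and Ctsc held none. RefSeq gave windows for 8 of the 10 genes, Ctsb and Ctsh being the others, and at least 1 window of Ctsa, Ctsd, Ctsl, Lgmn and Lamp1 held CACGTG. The motif reads the same on both strands. Counted by window, 5 of these genes' 10 windows held it, and so did 6.02% of the 32851 windows of this length in the mouse table. The form with 1 more base, TCACGTG or its reverse complement CACGTGA, which contains CACGTG, was in windows of 4 of the 8 genes. By window it was in 4 of their 10 and in 3.13% of all. A match describes these letters and not binding. The genes printed were picked by level and response, and a link of the motif to either was not tested. Of the genes not printed, Lgmn held it and rose in WT TAC by limma, and Ctsz held none and rose. Ctsa and Ctsl held it and did not pass.

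In WT mice, 5 of the 10 genes rose after TAC (Ctsk, Ctsz, Ctsc, Lgmn and Ctsb), and 0 fell. Over all genes, 13.6% rose and 2.85% fell in the same limma fit at an adjusted p under 0.05. Ctsk rose most, followed by the exopeptidases Ctsz and Ctsc. Ctsd, Ctsl and Lamp1, 3 of the 4 most abundant genes, lay 0.26 to 0.29 log2 units above sham and did not pass. After each library was centred on its own median, their changes were 0.10, 0.08 and 0.07. The median change of the 10 genes was 0.43, against 0.17 over all 8987 genes, and all 10 lay above that 0.17. With that centring 4 of the 10 passed, and 1171 of the 8987 genes did.

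The collagen-cutting protease Ctsk measured 1.6, 2.8, 2.0 and 2.3 RPKM after sham (animals 6, 7, 13 and 15) and 9.4, 8.1 and 6.1 after TAC (animals 1, 17 and 19). The lowest TAC library was above the highest sham library. The log2 change was 1.64 (SE 0.189, adjusted p 0.000414), which is 3.13-fold on the log2(RPKM + 0.5) scale, a scale that understates the change of low genes. It ranged from 1.51 to 1.81 when single libraries were left out.

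Ctsz, which trims single residues from the carboxyl end, measured 12.8, 6.4, 9.2 and 6.9 RPKM after sham and 28.5, 18.4 and 19.8 after TAC, with the animals in the same order here and in what follows. All 3 TAC libraries were higher than all 4 sham libraries, and in both groups the library of the first set was the highest. The log2 change was 1.31 (SE 0.223, adjusted p 0.00339).

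Ctsc, the dipeptidyl peptidase that activates granule proteases, had 4.1, 5.6, 5.3 and 6.6 RPKM after sham and 10.6, 10.3 and 11.1 after TAC. The TAC libraries lay close together and well above every sham library. The log2 change was 0.94 (SE 0.149, adjusted p 0.00245). Ctsc and Ctsz both act on the ends of proteins rather than inside the chain, as do Ctsa and Ctsh, which did not pass.

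Lgmn had 27.8, 28.2, 31.6 and 26.7 RPKM after sham and 45.7, 44.9 and 43.6 after TAC. It was among the most even of the 10 genes, with a within-group SD of 0.0818 log2 units against a median of 0.224 over all genes. Its log2 change was 0.64 (SE 0.0991, adjusted p 0.00208), or 1.56-fold.

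Ctsb, an abundant endopeptidase that also removes dipeptides, had 71.8, 83.6, 81.8 and 85.1 RPKM after sham and 101.6, 104.1 and 96.4 after TAC. The groups did not overlap, and the log2 change was 0.32 (SE 0.0952, adjusted p 0.0418). This call was near the threshold: its adjusted p was 0.428 after centring, at a log2 change of 0.13, and between 0.0514 and 0.136 when any single library of the 11 was left out. With the set as a term the adjusted p was 0.00212 and the SE 0.0646. The set was drawn from these same libraries, so that value is no independent support for the call.

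Of the 5 genes that did not pass, Ctsa came nearest. It had 26.9, 19.9, 18.2 and 17.6 RPKM after sham and 38.0, 26.9 and 26.1 after TAC, and sham 6 reached the level of TAC 17. Its log2 change was 0.54 (SE 0.169, adjusted p 0.0504), and 0.67 without WT sham 6 (adjusted p 0.00737). Ctsd, the main aspartic protease, had 368.4, 294.8, 303.3 and 317.8 RPKM after sham and 416.3, 407.3 and 353.2 after TAC. Sham 6 again lay within the TAC range, and the log2 change was 0.29 (SE 0.108, adjusted p 0.0909), or 0.36 without sham 6 (adjusted p 0.0247).

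Lamp1 had 133.5, 164.9, 162.6 and 163.6 RPKM after sham and 169.7, 210.3 and 183.0 after TAC. The groups did not overlap, but sham 6 stood below the others, and the log2 change of 0.26 did not pass (SE 0.112, adjusted p 0.134). Ctsl, an endopeptidase needed for normal heart muscle in mice, had 36.9, 37.9, 44.9 and 40.3 RPKM in sham and 43.6, 53.7 and 47.5 in TAC. The groups overlapped, and the log2 change was 0.27 (SE 0.110, adjusted p 0.123). Ctsh had 3.6, 3.1, 3.4 and 4.1 RPKM in sham and 5.3, 3.4 and 4.2 in TAC. Its log2 change of 0.23 (SE 0.159, adjusted p 0.350) was -0.01 after quantile normalization.

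Without overlap between the groups, 6 of the 10 genes were higher in WT TAC, namely Ctsb, Ctsc, Ctsk, Ctsz, Lgmn and Lamp1, and 18.9% of all genes were. Of the 10 genes 0 were lower without overlap, as were 4.65% of all genes. The 2 sets of libraries gave changes of the same sign for all 10 genes, with Ctsh at 0.09 in the second set. The share of all genes that agreed in sign was not counted, and more of all genes rose than fell in this comparison. With the set as a term 9 of 10 passed, all but Ctsh, and 3785 of the 8987 genes did. In the second set alone 9 of 10 passed as well, and 2914 of the 8987 genes did. In the first set, with 1 WT library in each arm, Ctsk passed at a log2 change of 2.24 (adjusted p 0.0404), and the lone libraries were assumed to vary like the other groups. The 9 proteases summed to 511 ± 30.6 RPKM in WT sham and 661 ± 47.5 in WT TAC.

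**Figure D2:**
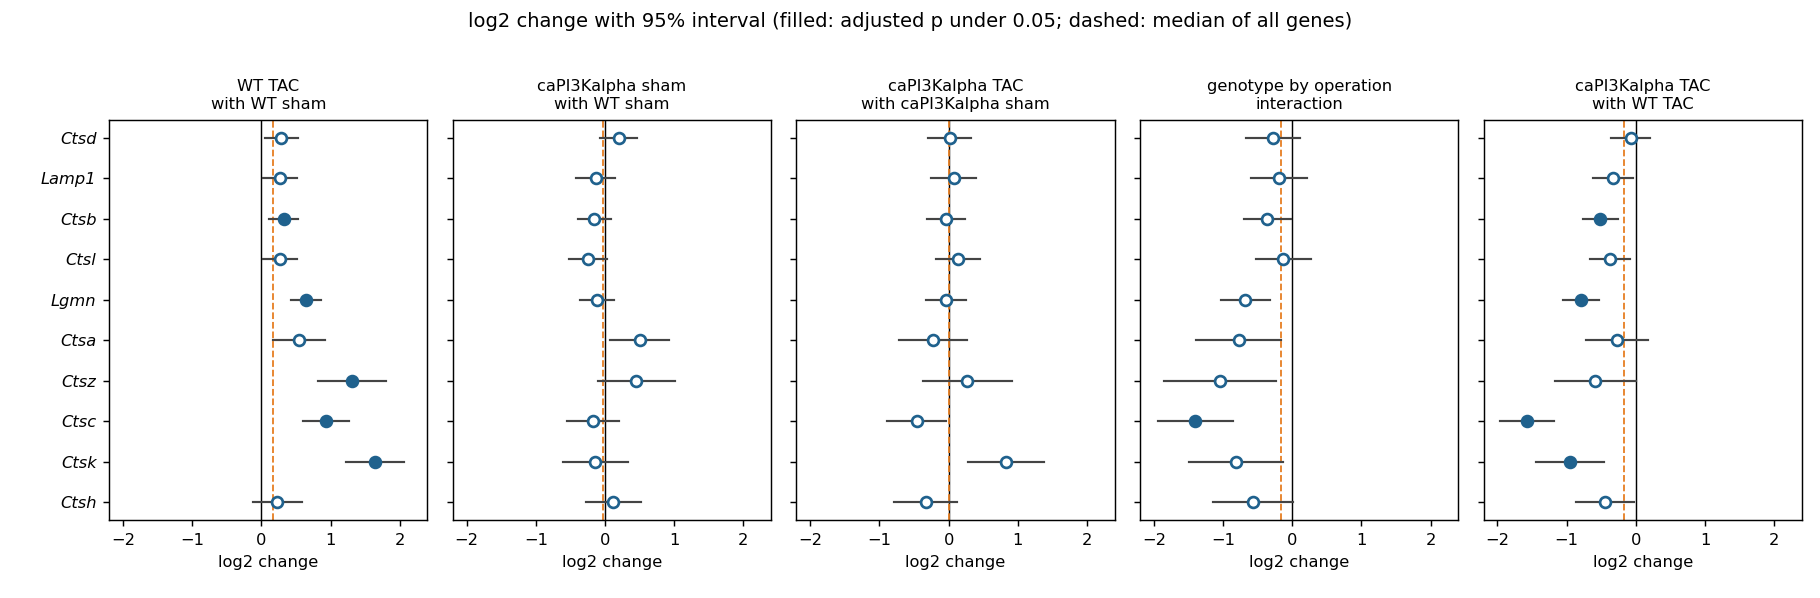
log2 change of each of the 10 genes in each comparison, with the 95% confidence interval from limma as the bar, filled points for an adjusted p under 0.05, and a dashed line at the median of all genes. In WT TAC with WT sham, 5 genes are filled, from Ctsb at 0.32 to Ctsk at 1.64, and in caPI3Kalpha TAC with WT TAC 4 are filled below 0.

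Macrophage markers and part of the fibroblast markers moved in the same libraries. Of 15 measured macrophage markers, 13 rose in WT TAC with a median log2 change of 1.09. Their summed level was 133.2 to 148.6 RPKM in the WT sham libraries and 293.5 to 350.0 after TAC. In caPI3Kalpha mice it was 118.7 to 184.4 RPKM after sham and 132.2 to 155.7 after TAC. Of 11 fibroblast markers 6 rose, and their summed level in the 4 groups, in the same order, was 346.5 to 444.5, 981.8 to 1131, 327.2 to 377.5 and 447.0 to 482.1 RPKM. In both lists 0 markers were at 0 throughout a group. The summed level of the 8 ventricular myocyte markers was lower in all WT TAC than in all WT sham libraries. Their median log2 change was -0.29, all 8 lay below 0 (6 of 8 after quantile normalization), and Myh6, the adult myosin heavy chain, fell by 0.68 (adjusted p 0.00574). Ctsc, Ctsz, Ctsk and Lgmn are all expressed in macrophages or fibroblasts in other settings, and the part of these cells, and of the myocytes, in the changes was not tested.

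The other lysosomal genes were read in the same fit. Among 4 other cathepsins, Ctss, a strong elastase of antigen-presenting cells, had 4.0 to 6.0 RPKM across the WT sham libraries and 15.3 to 17.3 across those of WT TAC, and it rose by 1.57 log2 units (SE 0.150, adjusted p 0.000128). Of 4 inhibitor genes 3 rose: Cst3, the secreted cystatin that blocks cysteine cathepsins, by 0.61, Serpinb6a by 0.55 and Serping1, which blocks complement proteases rather than lysosomal ones, by 0.78. The cytosolic inhibitor Cstb had a log2 change of 0.43 and did not pass. Centring on library medians left 0 of the 4 inhibitors called by limma, and quantile normalization left 2.

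Of 35 other lysosomal hydrolases 13 rose and 0 fell, with a median log2 change of 0.43. Among them were Scpep1, a carboxypeptidase related to Ctsa, at 1.22 and Gusb, the beta-glucuronidase, at 0.86. After centring or quantile normalization 7 of the 35 passed. Of 5 cofactors 2 rose, the sterol carrier Npc2 by 0.60 and progranulin (Grn) by 0.71. Of 16 membrane proteins 3 rose (Cd68 by 1.39, Laptm5 by 1.15 and Cd63 by 0.97), and Npc1, the cholesterol exporter that works with Npc2, fell by 0.63. Cd68 and Laptm5 are themselves markers of macrophages and other leukocytes.

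Of 16 subunits of the vacuolar ATPase, the proton pump that acidifies lysosomes, Atp6v0e rose by 0.38, and the list's median of 0.16 was close to the 0.17 of all genes. Of 13 sorting genes Gnptab, which makes the mannose 6-phosphate tag, rose by 0.54 and Ap1g1, an adaptor subunit, by 0.42, and the list's median was 0.15. Both lists' medians were thus near that of all genes. The mannose 6-phosphate receptors did not pass, with log2 changes of 0.36 for M6pr and 0.06 for Igf2r. Centring or quantile normalization left 0 calls by limma in the pump and sorting lists. Of 8 regulators, with a median of 0.04, 0 passed by limma and 1 had an unadjusted p under 0.05. That was Mitf, a relative of TFEB, at -0.44 (adjusted p 0.0953), and 1 of the 8 fell after centring or quantile normalization. Tfeb itself was not analysed here.

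**Figure D3:**
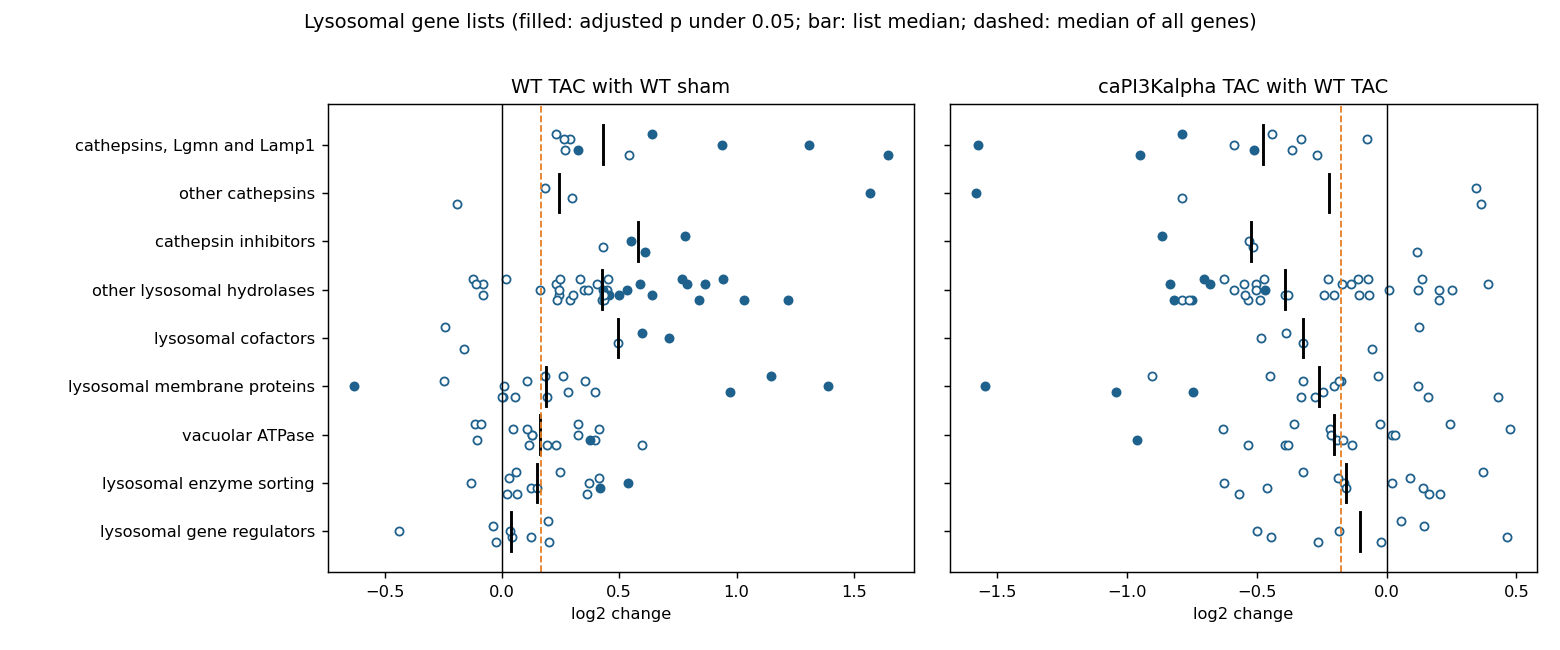
log2 change of every gene of each lysosomal list in 2 comparisons, filled where the adjusted p was under 0.05, with a bar at the list's median and a dashed line at the median of all genes. In WT TAC with WT sham the 10 genes and the hydrolases have medians of 0.43, and the vacuolar ATPase lies at 0.16.

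Between the sham-operated groups, caPI3Kalpha against WT, 0 of the 10 genes passed, and 1 had an unadjusted p under 0.05 (Ctsa). Over all genes 0.0111% passed, which was Pik3ca alone, and 1193 of 8987 had an unadjusted p under 0.05. The 2 genes with the highest log2 changes were Ctsa and Ctsz. Ctsa had 29.1 and 28.9 RPKM in caPI3Kalpha sham 5 and 8, above every WT sham library, with a log2 change of 0.50 (SE 0.192, adjusted p 0.326). Ctsz had 12.6 and 11.1 RPKM, inside the WT sham range of 6.4 to 12.8, with a log2 change of 0.45 (SE 0.253, adjusted p 0.330).

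Both log2 changes shifted with how the library sets were treated, and WT sham 6 is the only WT sham library of the first set. When WT sham 6 was left out, Ctsa passed at 0.63 (adjusted p 0.0326) and Ctsz at 0.64 (adjusted p 0.0444). Over all genes 1824 passed without it. Within the first set the log2 changes were 0.11 and -0.11, and with the set as a term 0.11 and -0.04. Ctsl was the gene whose caPI3Kalpha sham values, 33.9 and 33.5 RPKM, lay below all WT sham values, at a log2 change of -0.24 (SE 0.124, adjusted p 0.326). Of all genes, 9.42% lay above and 10.1% below without overlap.

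The remaining genes had 338.7 and 396.7 RPKM (Ctsd), 147.3 and 135.8 (Lamp1), 70.7 and 73.7 (Ctsb), 27.0 and 25.8 (Lgmn), 5.3 and 4.1 (Ctsc), 2.0 and 1.8 (Ctsk), and 4.2 and 3.6 (Ctsh) in caPI3Kalpha sham 5 and 8. All of these pairs overlapped the WT sham range. Their log2 changes lay between -0.17 and 0.20.

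TAC in caPI3Kalpha mice gave 0 of the 10 genes past the limma threshold, with 2 at an unadjusted p under 0.05 (Ctsk and Ctsc). Over all genes 0.0% passed, and 454 of 8987 had an unadjusted p under 0.05. With 2 libraries in each arm the intervals are wide. Ctsk, at 2.0 and 1.8 RPKM in sham 5 and 8 and 4.3 and 3.3 in TAC 11 and 211, had a log2 change of 0.83 (95% interval 0.29 to 1.38, adjusted p 0.534). Ctsc, at 5.3 and 4.1 in sham and 3.3 and 3.2 in TAC, had a log2 change of -0.46 (95% interval -0.89 to -0.03, adjusted p 0.870). Without overlap, the 2 Ctsk values lay above sham and the 2 Ctsc values below, as for 22.4% and 20.0% of all genes. Neither gene passed.

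For Lgmn the TAC values were 24.4 and 27.1 RPKM, on either side of the sham values, and the interval of the log2 change ran from -0.32 to 0.25. For Ctsb they were 72.0 and 68.9, and the interval ran from -0.31 to 0.24. Ctsd had 378.9 and 364.1 RPKM, inside its sham range, and Lamp1 153.8 and 143.6. Ctsa had 24.5 and 24.9, Ctsl 37.8 and 36.6, Ctsz 14.5 and 14.2 and Ctsh 2.7 and 3.3 RPKM. Apart from Ctsk and Ctsc, the log2 changes lay between -0.33 and 0.27. Without overlap, Ctsk, Ctsl and Ctsz were higher (22.4% of all genes) and Ctsa, Ctsc and Ctsh lower (20.0% of all genes). In each of the other lysosomal lists 0 genes passed by limma in this comparison.

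The difference between the genotypes in their response to TAC was tested as an interaction. Ctsc was the 1 gene of the 10 that passed, and 0.312% of all genes did (28, all with a lower response in caPI3Kalpha mice). Its response was 1.40 log2 units lower in caPI3Kalpha mice (log2 interaction -1.40, SE 0.246, adjusted p 0.0455). The other 9 estimates also lay below 0 without passing, as did those of 6260 of the 8987 genes, and Ctsl stood at 0.04 after centring on library medians. The median of the 10 was -0.62, against -0.16 over all genes.

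The next estimates were Ctsz at -1.04 (SE 0.367, adjusted p 0.329), Ctsk at -0.81 (SE 0.311, adjusted p 0.370), Ctsa at -0.77 (SE 0.279, adjusted p 0.343) and Lgmn at -0.68 (SE 0.163, adjusted p 0.141). Ctsh was at -0.56, Ctsb at -0.36, Ctsd at -0.27, Lamp1 at -0.19 and Ctsl at -0.13. With the set as a term Ctsa, Ctsc, Ctsz and Lgmn passed, at -0.73, -1.42, -0.99 and -0.68, and 607 of the 8987 genes did. Within the first set the estimates of these genes were -0.72, -1.73, -0.86 and -0.74. The Ctsc call depended on the libraries and the scaling: it held without WT sham 6 or WT sham 15, and was lost without any other single library (adjusted p 0.0588 to 0.256) and after centring or quantile normalization, at -1.23 and -1.24. The estimate itself ranged from -1.57 to -1.23 over those omissions.

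After TAC, the ventricles of caPI3Kalpha mice had lower levels of 4 of the 10 genes than those of WT mice, and higher levels of 0. Over all genes 6.52% passed in this test, 5.78% lower and 0.746% higher. Ctsc had the lowest log2 change, -1.57 (SE 0.178, adjusted p 0.00175). Its levels were 3.3 and 3.2 RPKM in caPI3Kalpha TAC 11 and 211, against 10.3 to 11.1 in the 3 WT hearts. Ctsk, at 4.3 and 3.3 against 6.1 to 9.4, had a log2 change of -0.95 (SE 0.226, adjusted p 0.0376). Lgmn, at 24.4 and 27.1 against 43.6 to 45.7, had a log2 change of -0.79 (SE 0.118, adjusted p 0.00805). Ctsb, at 72.0 and 68.9 against 96.4 to 104.1, had a log2 change of -0.51 (SE 0.114, adjusted p 0.0328). In all 4 genes both caPI3Kalpha values lay below every WT value. The 3 WT TAC libraries are those that also enter the comparison with WT sham, so the 2 comparisons are not independent.

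Ctsz, at 14.5 and 14.2 RPKM against 18.4 to 28.5, did not pass, with a log2 change of -0.59 (SE 0.267, adjusted p 0.152). Ctsh was at -0.44 (adjusted p 0.136), Ctsl at -0.37 (adjusted p 0.0941), Lamp1 at -0.33 (adjusted p 0.121) and Ctsa at -0.27 (adjusted p 0.351). Ctsd, at 378.9 and 364.1 against 353.2 to 416.3 RPKM, was the gene whose groups overlapped, and its log2 change of -0.07 (95% interval -0.36 to 0.21, adjusted p 0.685) became 0.09 after centring. The other 9 genes were lower in both caPI3Kalpha TAC libraries than in all WT TAC libraries, and so were 36.2% of all genes. The median of all genes was -0.18 here, and after centring or quantile normalization 2 of the 10 genes passed, Ctsc and Lgmn. Over all genes 269 passed after centring and 215 after quantile normalization.

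Single libraries and sets bore on these calls. With the set as a term 6 of the 10 passed, with Ctsa at -0.62 and Ctsz at -1.03 added, and 809 of the 8987 genes did. Ctsl and Lamp1 stood at -0.25 and -0.16 with that term, against -0.37 and -0.33 without it. In the first set alone, which holds 1 WT TAC library, 0 passed by limma, while Ctsc stood at -1.57 and Lgmn at -0.82. Without WT TAC 1, 6 passed, with Ctsl at -0.44 and Lamp1 at -0.40 added, and 3269 of the 8987 genes did. The Ctsc call held whichever library was left out. The Lgmn call was lost without caPI3Kalpha TAC 11 (adjusted p 0.124) or 211 (adjusted p 0.0625), and so were those of Ctsb and Ctsk. The Ctsb call held only without WT sham 6 or WT TAC 1 (adjusted p 0.0516 to 0.215 without any other library), and the Ctsk call without WT sham 6, WT sham 7 or WT TAC 1 (adjusted p 0.0565 to 0.249 without any other).

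**Figure D4:**
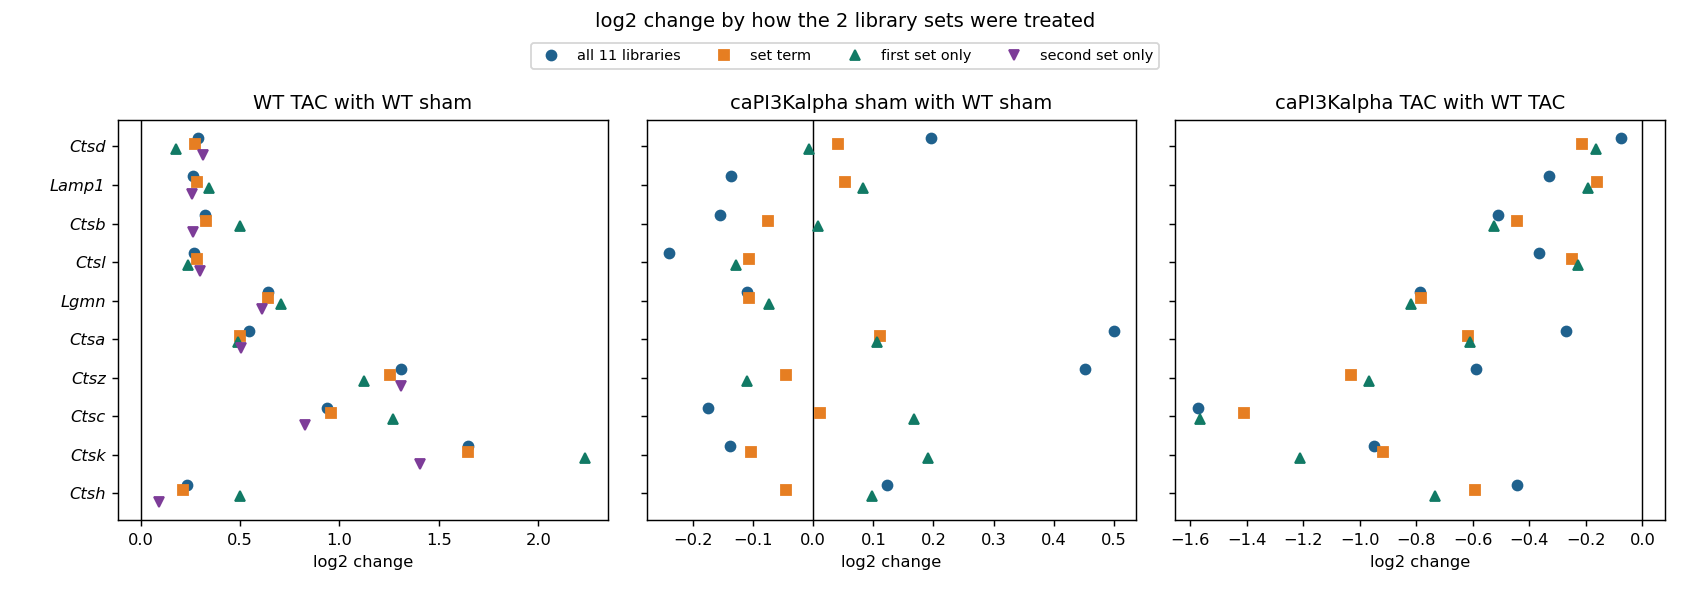
log2 change of the 10 genes in 3 comparisons, from all 11 libraries, with the library set as a term, in the first set alone and, where both groups are present, in the second set alone. Ctsa and Ctsz stand near 0.5 in caPI3Kalpha sham with WT sham over all libraries, and at 0.11 and -0.04 with the set as a term.

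Among the other lysosomal genes, Ctss was lower in caPI3Kalpha TAC than in WT TAC (4.8 and 5.2 RPKM against 15.3 to 17.3, log2 change -1.58, SE 0.179, adjusted p 0.00175). Its 2 values lay inside the WT sham range. Of the 35 hydrolases 6 were lower, including Gusb at -0.68, Arsb, an arylsulfatase, at -0.83, and Tpp1, a tripeptidyl peptidase, at -0.70, and after centring 1 of the 35 passed. Of the 16 membrane proteins 3 were lower: Cd68 at -1.55, Lamp2, the Lamp1 relative needed for autophagy, at -1.04, and Cd63 at -0.75. Lamp2 had 34.5 and 35.5 RPKM in caPI3Kalpha TAC and 31.5 and 36.5 in caPI3Kalpha sham, so the 2 operations gave overlapping values in this genotype. Across the WT libraries Lamp2 spanned 36.7 to 68.3 RPKM after sham and 51.9 to 88.4 after TAC. Serping1 was lower at -0.86 and the pump accessory subunit Atp6ap2 at -0.96, while Cst3 had a log2 change of 0.12 and did not pass. Of the 15 macrophage markers 9 were lower, with a median log2 change of -1.36, and 4 of the 11 fibroblast markers were, with a median of -0.78. Their part in the lower cathepsin levels was not tested. For these other genes and markers the values come from the fit without the set as a term. Both caPI3Kalpha TAC libraries belong to the first set, and WT TAC 17 and 19 to the second. Outside WT TAC 1, genotype and set therefore cannot be told apart in these values.

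Ctsd made up most of the protease RPKM in every group. It gave 62.7% of the summed RPKM of the 9 proteases in WT sham, 59.3% in WT TAC, 66.6% in caPI3Kalpha sham and 67.1% in caPI3Kalpha TAC. The sum itself was 551 ± 39.4 RPKM in caPI3Kalpha sham and 554 ± 11.9 in caPI3Kalpha TAC (n = 2 each).

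The genes most like each cathepsin over the 11 libraries were found by Pearson's r of log2(RPKM + 0.5), as a description, since the libraries share groups and sets. For Ctsk they were Itgbl1 (r = 0.969) and Gas7 (r = 0.962), for Ctsc C3ar1, a complement receptor of myeloid cells (r = 0.954), and Gda (r = 0.949), and for Lgmn the cytokine receptor Osmr (r = 0.979) and Igf1r (r = 0.978). For Ctsb they were Pid1 and Gda (both r = 0.976), and for Ctsl 2610203C20Rik (r = 0.966) and D6Wsu116e (r = 0.960). Lamp1 was most like Tmem184c (r = 0.987) and Ddr2, a collagen receptor (r = 0.974). Ctsz was most like Sept_5, a septin (r = 0.983), and Csk (r = 0.979), Ctsa like Maz (r = 0.962) and Tubb6 (r = 0.957), and Ctsd like Wwc2 (r = 0.949) and Adrbk1 (r = 0.929). Ctsh had the least close companions, Abr (r = 0.872) and Crebbp (r = 0.854).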

How the data were processed

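Messenger RNA libraries from 11 left ventricles were analysed, and the 16 small RNA libraries were not used. The values are RPKM computed by the authors, deposited at 1 decimal for genes reaching 3 RPKM in at least 1 library. No step of single reads is visible at 1 decimal, so the depth is unknown and no interval rests on it. Per the submitters' processing notes, the tools were CASAVA 1.6, Bowtie and Partek 6.5 and the build mm9, and the notes give no role to any of them. Blank, error and repeated lines were left out, which kept 8987 genes, and 0 columns matched no sample. The listed RPKM summed to 202916.4 to 212396.3 per library.

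Values were analysed as log2(RPKM + 0.5) in limma 3.58.1 (R 4.3.3), with 1 model of the 4 groups, a trended variance and Benjamini-Hochberg adjustment over all genes for each of 5 comparisons. Tests were two-sided with a threshold of 0.05. A minimum mean of 1 RPKM removed 0 genes. The script was tested on simulated data with independent noise for each gene and library. Those data held no library sets, so the test does not bear on how the sets affect the genotype comparisons. P-values measure the spread between animals as numbered in the titles. Named genes are the 10 members, the up to 3 smallest p-values of each lysosomal list in WT TAC with WT sham, up to 2 more from other comparisons, a few fixed by name, and the 2 most similar genes of each member. A gene that this rule selects is not reported here. The alternatives were other pseudocounts, filters and scalings, only the groups compared, a term for the 2 library sets (signs of the first principal component), each set alone, robust variance and leaving out each library. The members and lists were chosen with earlier results of these data known.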

Additional observations from a re-analysis of the deposited data

Results flagged for a closer look

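The Lamp1 level of WT sham 6, at 133.5 RPKM, lay apart from the other 3 WT sham libraries. The gap to the nearest of them was 0.927 of the group's whole range, above Dixon's 95% critical value for 4 samples. The WT sham values of all 10 genes were examined in this way and 1 was marked; chance marks about 1 in 20 groups. WT sham 6 is the only WT sham library of the first set.

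The response of Ctsc to TAC differed between the genotypes, with a log2 interaction of -1.40 (limma, adjusted p 0.0455). The call was lost without any single library other than WT sham 6 or WT sham 15 (adjusted p 0.0588 to 0.256). It was also lost after centring, quantile normalization, robust variance or a 5 RPKM minimum, and within the first set. Ctsc was higher in all 3 WT TAC libraries than in the WT sham libraries, and lower in both caPI3Kalpha TAC libraries than in the caPI3Kalpha sham libraries. Of all genes, 18.9% were higher without overlap in WT TAC and 20.0% lower in caPI3Kalpha TAC.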

How the results depend on the processing

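Of 1040 values of the 10 genes under alternatives, 942 kept their direction and their side of the threshold, 62 lost the call, 19 gained it and 17 changed sign. Only a called gene could lose its call. Many of these values could not change direction, because the alternative leaves the estimate as it was. Those are no filter, the 5 RPKM minimum, only the groups compared, robust variance and leaving out a library of a group not compared. The set term and the first set likewise leave the estimates of TAC in caPI3Kalpha mice unchanged. The 942 is therefore no measure of robustness. The losses were 18 for the 5 called in WT TAC with WT sham and 14 for the 1 called in the interaction. They were 30 for the 4 called in caPI3Kalpha TAC with WT TAC. Held among the 942 were 196 and 204 from caPI3Kalpha sham with WT sham and TAC in caPI3Kalpha mice, where 0 were called. Depth is unknown, 2 groups hold 2 animals each, and genotype follows the library sets, so the set term rests on 2 WT libraries. No paired analysis was possible because the messenger RNA libraries of different groups share no animal number. The interaction already uses all 4 groups, the second set holds only WT animals, and a minimum of 5 RPKM removes Ctsh and Ctsk, so no values exist there. The causes of the shifts below were not tested, beyond the fewer genes or libraries that some alternatives hold.

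In WT TAC with WT sham, 1481 genes passed, and 862 at a minimum of 5 RPKM, 925 after quantile normalization, 890 with only the groups compared, 3785 with the set term, 63 in the first set and 2914 in the second. The split of higher against lower was 1225 to 256, 561 to 610 after centring and 486 to 439 after quantile normalization. Of the 10 genes 9 passed with the set term, 1 in the first set and 9 in the second. For caPI3Kalpha sham with WT sham the first set gave 0 genes, and for TAC in caPI3Kalpha mice the set term gave 93. The interaction called 28 genes, and 18 at the 5 RPKM minimum, 18 after quantile normalization, 12 after centring, 607 with the set term and 0 in the first set by limma. Of the 10 genes 4 passed with the set term, and 0 with that minimum, quantile normalization, centring, robust variance or the first set. For caPI3Kalpha TAC with WT TAC, 586 genes passed, and 295 at the 5 RPKM minimum, 215 after quantile normalization, 269 after centring, 79 with only the groups compared and 1 in the first set. The split of higher against lower was 67 to 519, 130 to 139 after centring and 72 to 143 after quantile normalization. Of the 10 genes 2 passed after quantile normalization, 2 after centring, 1 with only the groups compared and 0 in the first set.

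Leaving out 1 library gave 729 to 1994 genes in WT TAC with WT sham, 1 to 1824 in caPI3Kalpha sham with WT sham, 0 to 2 in TAC in caPI3Kalpha mice, 3 to 66 in the interaction and 23 to 3269 in caPI3Kalpha TAC with WT TAC. Of the 10 genes it gave 4 to 6, 0 to 2, 0 to 0, 0 to 1 and 1 to 6. The ends of the largest ranges, 1824 and 3269, came without WT sham 6 and without WT TAC 1.

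The 17 sign changes follow, among them that of Ctsz in caPI3Kalpha sham with WT sham, which was 0.45 over all libraries. In WT TAC with WT sham, Ctsh was -0.014 after quantile normalization. In caPI3Kalpha sham with WT sham the set term gave Ctsc 0.011, Ctsh -0.045, Ctsz -0.045 and Lamp1 0.053, and the first set gave Ctsb 0.0077, Ctsc 0.17, Ctsd -0.0072, Ctsk 0.19, Ctsz -0.11 and Lamp1 0.083. For TAC in caPI3Kalpha mice, Ctsd was -0.0012 after centring and ran from -0.095 (without sham 5) to 0.13 (without sham 8) over the omissions, with -0.0097 without TAC 11. Lgmn ran from -0.11 to 0.037, the latter without TAC 11. After centring, Ctsl was 0.043 in the interaction and Ctsd 0.089 in caPI3Kalpha TAC with WT TAC.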
